A study of Mus musculus with 6 samples.

Results

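The genes described here are 8 matrix proteoglycans and the enzyme hyaluronan synthase 2, namely Vcan, Dcn, Bgn, Lum, Fmod, Prelp, Agrn, Hspg2 and Has2. They were taken by gene symbol, and these 9 genes were found as 9 of the 54532 rows of an expression table of mouse vascular smooth muscle cells. The table held 6 RNA-seq libraries of wild-type cells, of which 3 carry the label of an adenovirus for pyruvate dehydrogenase kinase 4 (Ad-PDK4) and 3 that of a control adenovirus (Ad-Con). PDK4 is an enzyme of mitochondria that limits the entry of pyruvate into the citric acid cycle, and the comparison asked how its overexpression altered gene expression in these cells. According to the study, the cells of both groups were isolated from the abdominal aorta of wild-type mice by collagenase digestion, passaged in culture, and treated with angiotensin II after transduction. Angiotensin II is not mentioned in the labels, and untreated cells were not analysed here. Both groups were grown in medium with 10% fetal bovine serum at 37 °C and 5% CO2. The study's methods also describe serum starvation of these cells for in vitro experiments, without naming the RNA-seq. The study names C57BL/6J as the strain of its wild-type mice, without naming it for the mice that gave these cells, and the promoter of the adenoviral vectors was not given in the sources used here. The study describes the libraries of a group as biological replicates, whereas the labels do not say whether they came from separate cultures or animals, and the p-values measure the spread between these libraries.

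Proteoglycans are core proteins that carry sulfated glycosaminoglycan chains, and they fill the space between collagen and elastic fibres in the arterial wall. Versican (Vcan) is a large chondroitin sulfate proteoglycan that binds hyaluronan, the unsulfated polysaccharide that Has2 makes at the plasma membrane. Decorin (Dcn), biglycan (Bgn), lumican (Lum), fibromodulin (Fmod) and prolargin (Prelp) are small leucine-rich proteins that bind collagen, whereas agrin (Agrn) and perlecan (Hspg2) are large heparan sulfate proteoglycans of basement membranes.

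The genes lie on 6 chromosomes in the GRCm38 coordinates of the table. Vcan (ENSMUSG00000021614) was on the minus strand of chromosome 13 from 89655312 to 89742509, and Agrn (ENSMUSG00000041936) was on the minus strand of chromosome 4 from 156165290 to 156197488. The 250 bases upstream of the RefSeq start site of these genes are shown because their RNA had the largest fall and the largest rise among the 8 genes that could be tested. Both are from build GRCm38.p6, run 5′ to 3′ along the minus strand, and have each GC box (GGGCGG, sought on both strands) in capitals.
Vcan, chr13:89742513-89742762: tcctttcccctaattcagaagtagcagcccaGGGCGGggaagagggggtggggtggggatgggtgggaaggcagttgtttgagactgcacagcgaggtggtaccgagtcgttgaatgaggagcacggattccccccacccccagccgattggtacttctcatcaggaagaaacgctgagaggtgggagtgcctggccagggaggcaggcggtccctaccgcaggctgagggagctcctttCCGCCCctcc
Agrn, chr4:156197489-156197738: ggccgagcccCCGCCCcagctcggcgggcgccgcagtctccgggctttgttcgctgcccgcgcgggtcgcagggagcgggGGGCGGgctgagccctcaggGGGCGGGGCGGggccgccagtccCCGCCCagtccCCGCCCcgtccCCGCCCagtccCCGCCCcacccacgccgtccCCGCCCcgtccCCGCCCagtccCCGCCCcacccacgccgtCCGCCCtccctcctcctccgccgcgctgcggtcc
The Vcan window held 2 GC boxes and the Agrn window 12, of which some overlap. The GC content was 62.4% for Vcan and 83.6% for Agrn, against a median of 52.4% over 32851 windows of the same length upstream of annotated starts. A GC box was present in 32.7% of all windows, at least 2 in 16.7% and at least 12 in 5 windows. A further start site of Agrn held 2 GC boxes, and the windows of Bgn, Hspg2, Fmod and Prelp held 3, 5, 0 and 0. None of the 7 windows examined for these 6 genes held a TATA box (TATAAA, in 12.4% of all windows), the AP-1 motif (TGANTCA, 6.75%), the E-box CACGTG (6.02%), the TEAD motif (GGAATG, 12.6%), the core of the interferon-stimulated response element (2.98%) or the NF-kB motif (7.25%) on either strand. These matches describe letters in a window and not bound sites.

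Expression was deposited as FPKM (fragments per kilobase of exon, scaled to the size of the library), so levels of different genes are compared per length. The libraries held between 17588942 and 21861872 recovered reads. Whether vector-derived transcripts were counted for Pdk4 is not given in the sources used here, and Pdk4 was lower in the libraries labelled Ad-PDK4 (7.67, 7.40 and 7.38 FPKM) than in those labelled Ad-Con (9.50, 10.4 and 10.1 FPKM), with a log2 fold change of −0.42 (SE 0.061, adjusted p = 1.1e-03). This goes against the label, and every direction below is drawn between the libraries as labelled. Of 8 smooth muscle markers, 3 reached the tested level. Acta2 fell from 78.0 ± 0.950 to 36.2 ± 2.40 FPKM (SD, n = 3), whereas the defining markers Myh11, Tagln and Myocd had at most 10, 20 and 5 reads in any library. These markers were thus close to absent, against the cell type label, and the cells are called vascular smooth muscle cells here by that label alone. The summed FPKM of the 8 markers, mostly Acta2, was 87.0 to 88.7 in Ad-Con and 43.2 to 48.0 in Ad-PDK4 libraries. The other tested markers, Smtn (8.32 and 8.44 FPKM, log2 fold change 0.018) and Lmod1 (−0.29, adjusted p = 0.36), were not called. The sum of 6 fibroblast markers, mostly Dpt, was 202 to 240 in Ad-Con and 92.2 to 98.4 in Ad-PDK4 libraries, with 3 of 4 tested markers lower. Pdgfra was not called (20.5 and 19.9 FPKM, log2 fold change −0.046). The sum of 4 mesothelial markers, mostly Msln, was 244 to 261 and 129 to 140, with 2 of 3 tested markers lower and 1, Lrrn4, higher (log2 fold change 1.18). Wt1, below the tested level, had 15, 21 and 18 reads in Ad-Con and 63, 72 and 76 reads in Ad-PDK4 libraries. The sums of 6 macrophage markers were 13.3 to 16.4 and 3.69 to 5.50, mostly Cd68, while Ptprc and Tyrobp had 0 reads in every library. Csf1r, below the tested level, went the other way, with 11, 23 and 35 reads in Ad-Con and 56, 62 and 61 reads in Ad-PDK4 libraries. Endothelial markers summed to at most 1.18 FPKM in any library. The sum of 4 chondrocyte-like markers, mostly Sox9, was 11.1 to 12.3 FPKM in Ad-Con libraries and lower in every Ad-PDK4 library. Sox9 fell from 11.6 to 7.05 FPKM, and Acan had at most 1 read. Chad, below the tested level, went the other way, with 3, 1 and 5 reads in Ad-Con and 10, 18 and 10 reads in Ad-PDK4 libraries. Col2a1, also below that level, had 3, 3 and 1 reads in Ad-Con and 5, 3 and 6 reads in Ad-PDK4 libraries. The part of these shifts in the results below was not tested, and in bulk RNA fewer cells of a type cannot be told apart from less RNA per cell.

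Of the 9 genes, 8 reached a mean of 0.5 FPKM and were tested with limma on log2(FPKM + 0.1). At an adjusted p below 0.05, Agrn and Dcn rose, Vcan, Lum and Prelp fell, and Bgn, Fmod and Hspg2 did not pass. In all, 5 of the 8 tested genes (62.5%) were called, against 42.7% of all 13423 tested genes, with 21.8% of all genes higher and 20.8% lower. Agrn, Vcan and Lum differed by a fold of at least 2, which is 37.5% of the 8 tested genes against 6.63% of all tested genes. The median log2 fold change was −0.28 for the 8 genes and −0.0031 for all tested genes. The groups did not overlap for 5 of the 8 tested genes, against 54.3% of all tested genes, and they did not overlap for Has2, which was below the tested level.

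The levels spanned more than 3 orders of magnitude per length. Under the Ad-Con label the order from the highest mean was Bgn, Dcn, Hspg2, Lum, Agrn, Prelp, Vcan, Fmod and Has2, with overlapping ranges for Agrn and Prelp and for Prelp and Vcan. Under the Ad-PDK4 label the fourth gene was Agrn and the seventh Vcan, and the ranges of Prelp and Lum and of Vcan and Fmod overlapped. Bgn made up 64.4% ± 1.15 of the summed FPKM of the 9 genes in Ad-Con and 58.3% ± 0.683 in Ad-PDK4 libraries (SD, n = 3). The share of Dcn was 16.3% to 18.2% in Ad-Con and 23.6% to 29.1% in Ad-PDK4 libraries, and that of Agrn was 1.08% ± 0.0880 and 3.11% ± 0.494. The plot of levels by library shows this order, with the separate groups of Agrn, Dcn, Vcan, Lum, Prelp and Has2.

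**Figure D1:**
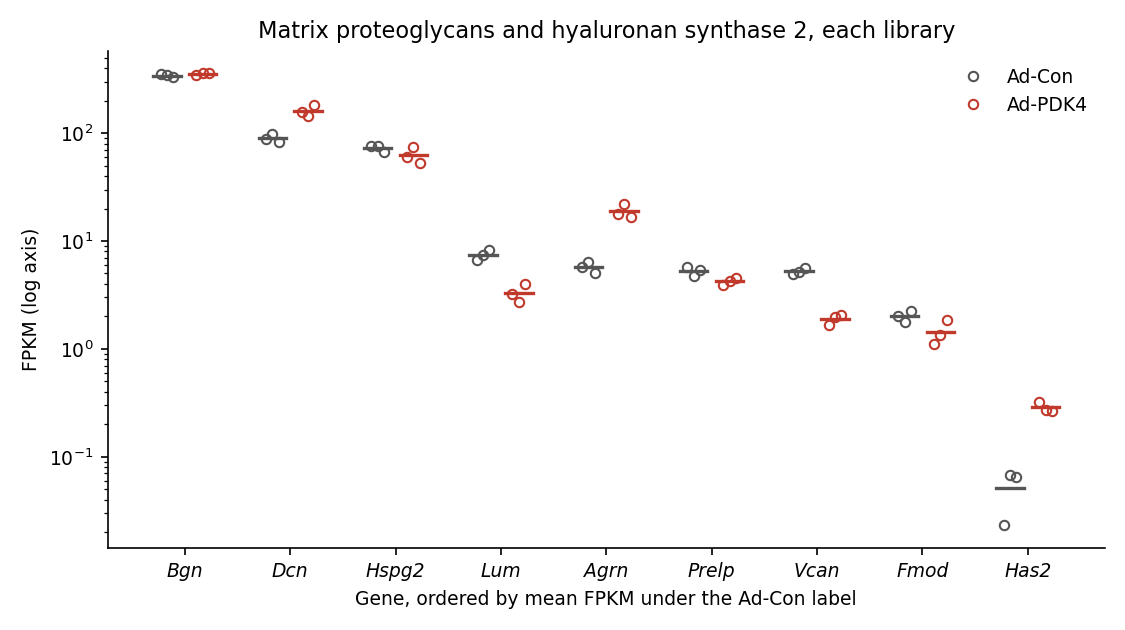
FPKM on a log axis for the 9 genes, ordered by their mean in Ad-Con libraries, where each circle is a library (3 Ad-Con in grey, 3 Ad-PDK4 in red) and each bar is the group mean. Bgn lies between 330 and 358 FPKM in all 6 libraries, the Agrn circles of the Ad-PDK4 label (16.6 to 22.2 FPKM) all lie above those of Ad-Con (5.01 to 6.35 FPKM), and Has2 has at most 0.324 FPKM.

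Vcan, the core protein of versican, was 4.91, 5.21 and 5.63 FPKM in Ad-Con replicates 1, 2 and 3 and 1.68, 1.97 and 2.06 FPKM in Ad-PDK4 replicates 1, 2 and 3, the order used for all values below. Every Ad-PDK4 library was below every Ad-Con library, and the means were 5.25 ± 0.365 and 1.90 ± 0.196 FPKM (SD, n = 3), a ratio of 2.76. The log2 fold change was −1.42 (SE 0.10, adjusted p = 3.2e-05). The recovered reads were 1444, 1324 and 1477 in Ad-Con and 443, 498 and 658 in Ad-PDK4 libraries. Vcan has 9 annotated transcripts, 8 of them coding, and the gene-level values do not separate the forms that differ in their chondroitin sulfate regions. Of 7 listed proteases that cleave versican, 4 were tested and all 4 were called, 2 in each direction. Over all tested genes 42.7% were called. Adamts4 fell from 5.49 ± 0.421 to 2.20 ± 0.225 FPKM (log2 fold change −1.28, adjusted p = 5.4e-05) and Adamts1 from 10.5 to 7.98 FPKM (−0.40). Adamts5 rose from 11.4 ± 1.33 to 23.6 ± 0.693 FPKM (log2 fold change 1.05, adjusted p = 4.8e-05) and Adamts9 from 0.963 to 2.22 FPKM (1.15).

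Has2 (ENSMUSG00000022367, minus strand of chromosome 15 from 56665627 to 56694539), which synthesizes hyaluronan, was at a low level in all libraries. Its FPKM was 0.0232, 0.0672 and 0.0651 in Ad-Con and 0.324, 0.270 and 0.267 in Ad-PDK4 libraries, which stands for 2, 5 and 5 reads and for 25, 20 and 25 reads. All 3 Ad-PDK4 libraries were above all 3 Ad-Con libraries. The summed reads were 12 and 70, and their ratio scaled to library size was 5.66, with an exact 95% interval of 3.04 to 11.5 that covers counting error only. An exact two-sided permutation test of the FPKM values gave p = 0.1, the smallest value that 20 arrangements of 3 against 3 libraries allow. When genes of any level were tested, the log2 fold change of Has2 was 1.36 (SE 0.29, adjusted p = 0.0169), but the adjusted p was 0.0558 when replicate 1 of Ad-Con was left out and 0.0637 when replicate 1 of Ad-PDK4 was left out. On the log2(FPKM + 0.1) scale this value understates the change of a gene at such a level. An antisense gene, Has2os, shares 182 exonic bases (4.30%) with Has2 and had at most 8 reads in any library, and whether counting used strand was not given in the sources used here.

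The sister enzymes Has1 and Has3 also remained below the tested level. Has1 had 9, 20 and 17 reads in Ad-Con and 41, 39 and 51 reads in Ad-PDK4 libraries, without overlap. Its scaled ratio was 2.76 (exact 95% interval 1.96 to 3.95, exact permutation p = 0.1). Without a level filter its log2 fold change was 1.11 (SE 0.29, adjusted p = 0.0358), and this call was lost when any library other than Ad-Con replicate 2 was left out, with values between 0.87 and 1.19. Has3 had 31, 20 and 14 reads in Ad-Con and 21, 30 and 27 reads in Ad-PDK4 libraries, which overlapped, and the ratio was 1.16 (0.827 to 1.64, exact permutation p = 0.4). Among the other genes of hyaluronan synthesis and turnover, 6 were tested, with 3 higher, 1 lower and 2 not called. This is 66.7% called, against 42.7% of all tested genes. Cemip, which takes part in hyaluronan breakdown, rose from 4.06, 4.75 and 3.93 FPKM to 20.2, 22.0 and 19.9 FPKM (log2 fold change 2.26, SE 0.085, adjusted p = 8.7e-07). Ugdh, the enzyme that makes UDP-glucuronate for hyaluronan and sulfated chains, rose from 11.6 to 16.6 FPKM (0.52). Hyal1, a lysosomal hyaluronidase, fell from 2.82 to 2.03 FPKM (−0.46, adjusted p = 0.027), a call that was lost on leaving out replicate 1 (−0.40) or 2 (−0.49) of Ad-Con or replicate 2 (−0.46) or 3 (−0.35) of Ad-PDK4.

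Of 13 genes whose products bind hyaluronan or versican, 6 were tested, with 3 higher, 1 lower and 2 not called. Called genes were thus 66.7% of those tested, against 42.7% of all tested genes. Ptx3, a pentraxin of the hyaluronan-rich matrix, was 0.256, 0.0425 and 0.185 FPKM in Ad-Con (14, 2 and 9 reads) and 3.28, 3.05 and 4.37 FPKM in Ad-PDK4 libraries (160, 143 and 259 reads). All 3 Ad-PDK4 libraries were above all 3 Ad-Con libraries, with a log2 fold change of 3.89 (SE 0.35, adjusted p = 9.2e-05). At so few Ad-Con reads the size depends on the pseudocount, with 1.97 at a pseudocount of 1 and 4.66 at 0.01, and Ptx3 was called under all 15 alternatives in which it was tested. Itih2, a heavy chain that is transferred to hyaluronan, rose from 138 to 166 FPKM (0.27). Hmmr, a hyaluronan receptor that also serves the mitotic spindle, fell from 3.94 to 2.20 FPKM (−0.77, adjusted p = 0.022), and this call was lost on leaving out replicate 1 (−0.65) or 3 (−0.64) of Ad-Con or replicate 2 (−0.78) or 3 (−0.70) of Ad-PDK4. The main hyaluronan receptor Cd44 had 7.72 FPKM in Ad-Con and 8.20 FPKM in Ad-PDK4 libraries and was not called (log2 fold change 0.084, adjusted p = 0.47). Cd44 lies outside the naming rule and was chosen after its values were seen.

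The small leucine-rich proteoglycans did not move together. Dcn (ENSMUSG00000019929), which carries a single chondroitin or dermatan sulfate chain, was 87.7, 99.2 and 83.3 FPKM in Ad-Con and 157, 143 and 181 FPKM in Ad-PDK4 libraries. All Ad-PDK4 libraries were higher, with means of 90.1 ± 8.20 and 161 ± 19.0 FPKM (SD, n = 3), a ratio of 1.78 and a log2 fold change of 0.83 (SE 0.10, adjusted p = 4.0e-04). Bgn (ENSMUSG00000031375, plus strand of chromosome X from 73483602 to 73495933), the closest relative of Dcn in this group, was 351, 344 and 330 FPKM in Ad-Con and 345, 358 and 358 FPKM in Ad-PDK4 libraries. These ranges overlapped, and the log2 fold change of 0.050 had a 95% interval of −0.055 to 0.155 (adjusted p = 0.41). The 95% interval of the Dcn log2 fold change, 0.60 to 1.06, lay above it.

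Lum (ENSMUSG00000036446), which regulates the assembly of collagen fibrils, was 6.72, 7.49 and 8.18 FPKM in Ad-Con and 3.21, 2.71 and 4.01 FPKM in Ad-PDK4 libraries. The groups were separate, with means of 7.46 ± 0.728 and 3.31 ± 0.659 FPKM (SD, n = 3), a ratio of 2.26 and a log2 fold change of −1.16 (SE 0.14, adjusted p = 4.6e-04). Lum rested on 335, 322 and 363 reads and on 143, 116 and 217 reads. Fmod (ENSMUSG00000041559, plus strand of chromosome 1 from 134037254 to 134048277), which is closely related to Lum and also binds collagen, was 2.04, 1.76 and 2.27 FPKM in Ad-Con and 1.11, 1.35 and 1.84 FPKM in Ad-PDK4 libraries. Ad-PDK4 replicate 3 lay within the Ad-Con range, and the log2 fold change of −0.49 (SE 0.19) did not pass, with an adjusted p of 0.072. It passed without Ad-PDK4 replicate 3 (−0.67, adjusted p = 0.0192). Prelp (ENSMUSG00000041577, minus strand of chromosome 1 from 133910304 to 133921414), which links basement membranes to the underlying collagen, was 5.79, 4.76 and 5.36 FPKM in Ad-Con and 3.91, 4.22 and 4.53 FPKM in Ad-PDK4 libraries. The groups did not overlap, and the log2 fold change was −0.32 (SE 0.10, adjusted p = 0.030). This call was lost in 4 of 6 fits with a library left out, namely those without replicate 1 (−0.26) or 3 (−0.31) of Ad-Con and without replicate 1 (−0.27) or 2 (−0.32) of Ad-PDK4. Prelp shares 350 exonic bases (9.68%) with the antisense gene Gm15851, which had 0 reads in every library.

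Dcn and Lum are neighbours on chromosome 10, on the same strand from 97479609 to 97518143 and from 97565128 to 97572703, with 46984 bases and 0 annotated genes between them. Dcn rose while Lum fell. The ratio of Dcn to Lum within a library was 10.2 to 13.2 in Ad-Con and 45.1 to 52.9 in Ad-PDK4 libraries, with means of 12.2 ± 1.71 and 49.0 ± 3.92 (SD, n = 3). The ratio of Dcn to Bgn was 0.264 ± 0.0213 and 0.454 ± 0.0531, and that of Vcan to Dcn was 0.0587 ± 0.00790 and 0.0119 ± 0.00159, each without overlap. Prelp and Fmod lie 115839 bases apart on chromosome 1, on opposite strands and with 2 genes between them, and their ratio overlapped between the labels (2.64 ± 0.249 and 3.04 ± 0.525).

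The heparan sulfate proteoglycans of the basement membrane differed from each other. Agrn, known for the clustering of acetylcholine receptors at the neuromuscular junction, was 5.80, 6.35 and 5.01 FPKM in Ad-Con and 17.7, 22.2 and 16.6 FPKM in Ad-PDK4 libraries. Every Ad-PDK4 library was higher, and the means were 5.72 ± 0.677 and 18.8 ± 2.95 FPKM (SD, n = 3), a ratio of 3.29. The log2 fold change was 1.70 (SE 0.13, adjusted p = 4.1e-05), on 1097, 1036 and 843 reads against 2991, 3606 and 3413 reads. Hspg2 (ENSMUSG00000028763), the perlecan gene on the plus strand of chromosome 4 from 137468769 to 137570630, was 75.6, 76.7 and 67.0 FPKM in Ad-Con and 59.9, 73.7 and 53.0 FPKM in Ad-PDK4 libraries. Ad-PDK4 replicate 2 lay within the Ad-Con range, and the log2 fold change was −0.24 (95% interval −0.53 to 0.040, adjusted p = 0.146). Without that library Hspg2 passed at −0.37 (adjusted p = 0.0120). The ratio of Agrn to Hspg2 within a library was 0.0768, 0.0829 and 0.0747 in Ad-Con and 0.296, 0.301 and 0.314 in Ad-PDK4 libraries. The spread of this ratio was small in both groups, at 0.00423 and 0.00931 (SD, n = 3) around means of 0.0781 and 0.303.

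**Figure D2:**
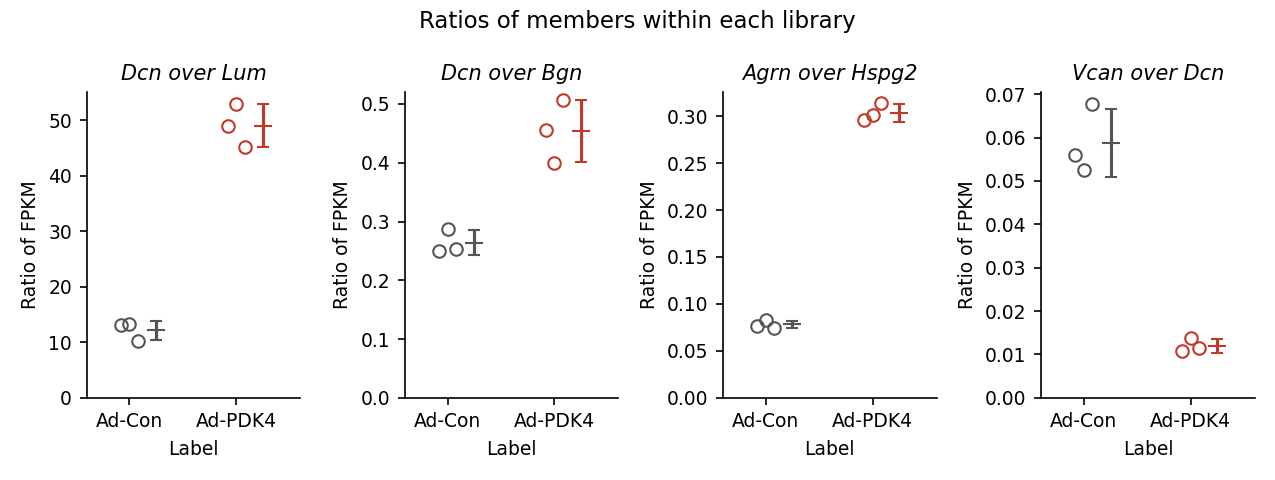
Ratios of FPKM within each library for Dcn over Lum, Dcn over Bgn, Agrn over Hspg2 and Vcan over Dcn, where circles are the 3 libraries of each label and bars are the mean ± SD. In all 4 panels the labels do not overlap, with mean Dcn over Lum at 12.2 and 49.0 and mean Vcan over Dcn at 0.0587 and 0.0119.

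The plot of log2 fold changes places the 8 tested genes side by side. Agrn and Dcn lay above 0 and Vcan and Lum below 0 in every fit with a library left out, with ranges of 1.57 to 1.78, 0.74 to 0.91, −1.48 to −1.34 and −1.31 to −1.03. The intervals of Bgn and Hspg2 held 0. That of Fmod, −0.93 to −0.049, did not, but Fmod did not pass after adjustment over all tested genes.

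**Figure D3:**
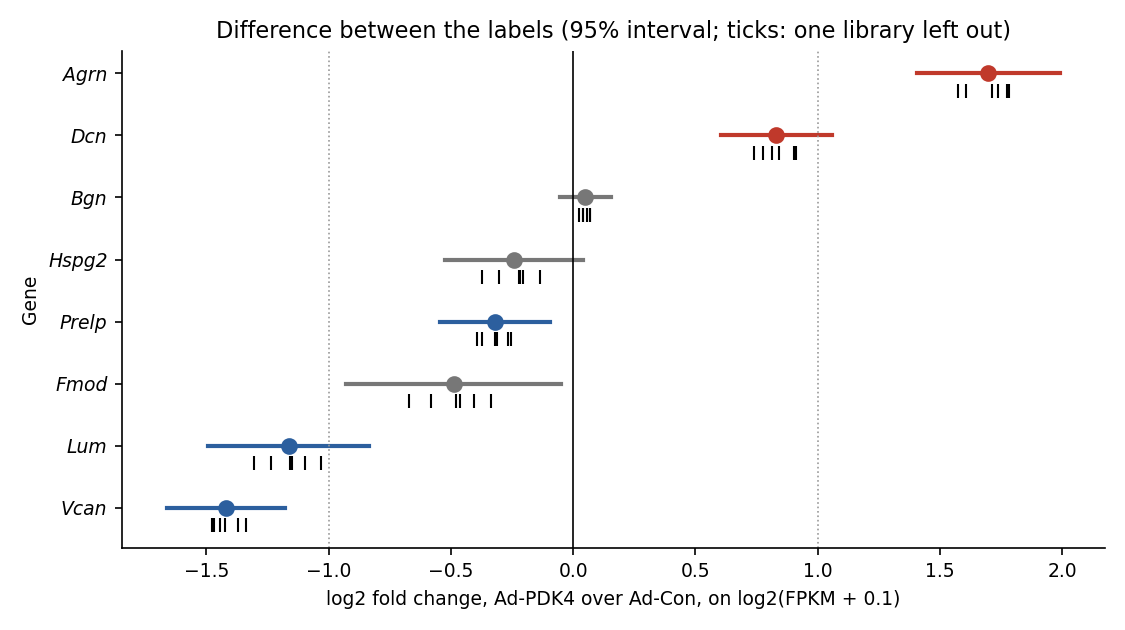
Log2 fold change of Ad-PDK4 over Ad-Con on log2(FPKM + 0.1) for the 8 tested genes, with points and 95% intervals from limma (red higher, blue lower, grey not called), ticks for the fits with a library left out, and dotted lines at a fold of 2. Agrn (1.70), Vcan (−1.42) and Lum (−1.16) lie beyond the dotted lines, and Bgn (0.050) lies next to 0.

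The partners of these core proteins include receptors and other basement membrane proteins. Of 12 listed, 11 were tested, with 3 higher, 4 lower and 4 not called (63.6% called, against 42.7% of all tested genes). Lrp4, the agrin receptor, was 7.99, 7.82 and 7.71 FPKM in Ad-Con and 4.55, 4.88 and 3.29 FPKM in Ad-PDK4 libraries. It fell (log2 fold change −0.89, SE 0.14, adjusted p = 1.4e-03) where Agrn rose. Nid1, which links laminin to perlecan, fell from 269 ± 7.66 to 179 ± 11.9 FPKM (−0.59, adjusted p = 1.5e-04). Tlr2, a receptor for soluble biglycan and decorin, rose from 4.35 to 8.27 FPKM (0.91), and Egfr, which decorin binds, rose from 13.1 to 22.1 FPKM (0.75).

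The wider pathway was counted in 10 lists of 137 symbols, of which 135 were found and 87 tested. Of these, 29 were higher, 27 lower and 31 not called, so that 64.4% were called against 42.7% of all tested genes, and the median log2 fold change was −0.036. The lists were chosen with earlier results of these data known, so these shares only describe them. The share called also depends on level: with a minimum mean of 5 FPKM, 2162 of 7731 genes were higher and 1881 lower. Other secreted proteoglycans had 7 of 9 tested genes higher and 1 lower, with a median of 0.40. Over all tested genes 21.8% were higher and 20.8% lower. Several calls of this list were near the limit, namely Podn (0.71, adjusted p = 0.048), Smoc1 (0.29, 0.045) and the lower gene Nyx (−0.65, 0.038). With no filter these did not pass (adjusted p = 0.064, 0.088 and 0.061). They lie outside the naming rule. Limma-voom called 6 genes of the list higher and 1 lower. Prg4 (lubricin) rose from 0.877 to 1.92 FPKM (1.07), and Omd (osteomodulin), which overlapped between the labels, from 3.39 to 4.86 FPKM (0.51, adjusted p = 0.049). The call of Omd was lost on leaving out replicate 1 (0.40) or 3 (0.48) of Ad-Con or replicate 1 (0.48) or 3 (0.39) of Ad-PDK4. Of 8 tested cell-surface proteoglycans, 3 were higher and 3 lower. The syndecan Sdc4 rose from 29.3 to 49.3 FPKM (0.75) and Tgfbr3 (betaglycan) from 26.5 to 42.0 FPKM (0.66), whereas the glypican Gpc1 fell from 25.9 to 17.8 FPKM (−0.54) and Sdc1 from 34.7 to 26.7 FPKM (−0.38).

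The enzymes that build and sulfate the chains were counted in 4 lists, between which no difference was tested. Of 12 tested genes for the linker tetrasaccharide and the sulfate donor, 0 were higher, 7 were lower and 5 were not called by limma, with a median log2 fold change of −0.30. Over all tested genes 42.7% were called, 21.8% higher and 20.8% lower, against 58.3% called in this list. At an unadjusted p below 0.05 the list had 1 gene higher and 7 lower, and limma-voom called 0 higher and 7 lower. Papss2, a synthase of the sulfate donor PAPS, was 7.89, 7.93 and 7.60 FPKM in Ad-Con and 4.63, 4.84 and 5.28 FPKM in Ad-PDK4 libraries. Every Ad-PDK4 library was below every Ad-Con library (log2 fold change −0.66, SE 0.071, adjusted p = 2.4e-04). The sulfate transporter Slc26a2 fell from 3.23 to 2.43 FPKM (−0.39). Of 12 tested chondroitin and dermatan sulfate enzymes, 2 were higher, 4 lower and 6 not called. The epimerase Dse, which makes dermatan sulfate, rose from 16.0 to 25.3 FPKM (0.65), while its relative Dsel fell from 5.64 to 3.12 FPKM (−0.83). Csgalnact2, which starts chondroitin chains, rose from 9.95 to 14.0 FPKM (0.48), and the sulfotransferase Chst7 fell from 2.05 to 0.670 FPKM (−1.46). Csgalnact1, the relative of Csgalnact2, was below the tested level. With no filter Csgalnact1 fell (log2 fold change −2.10, adjusted p = 1.1e-03). It lies outside the naming rule and was chosen after its values were seen.

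Of 15 tested heparan sulfate enzymes, 6 were higher, 2 lower and 7 not called, with a median of 0.15. This is 53.3% called, against 42.7% of all tested genes. Sulf1, an extracellular sulfatase that edits heparan sulfate, was 13.5, 14.5 and 13.2 FPKM in Ad-Con and 31.1, 31.6 and 31.9 FPKM in Ad-PDK4 libraries. Every Ad-PDK4 library was above every Ad-Con library (ratio of means 2.30, adjusted p = 2.1e-06). The sulfotransferase Hs3st1 rose from 3.86 to 8.56 FPKM (1.15). Hs2st1 (−0.28, adjusted p = 0.020) and the epimerase Glce (−0.21, adjusted p = 0.035) fell. The Hs2st1 call was lost on leaving out replicate 1 of Ad-Con (−0.22) or replicate 1 (−0.24) or 2 (−0.27) of Ad-PDK4, and the Glce call was lost when any library other than Ad-PDK4 replicate 3 was left out (−0.24 to −0.18). Of 4 tested keratan sulfate enzymes, whose chains Lum and Fmod can carry, Chst1 (4.43 to 3.08 FPKM, −0.51) and B4galt1 (38.4 to 29.4 FPKM, −0.38) fell by limma, 0 were higher and 2 were not called. An unadjusted p below 0.05 gave 2 genes higher in this list, and limma-voom called 1 higher.

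**Figure D4:**
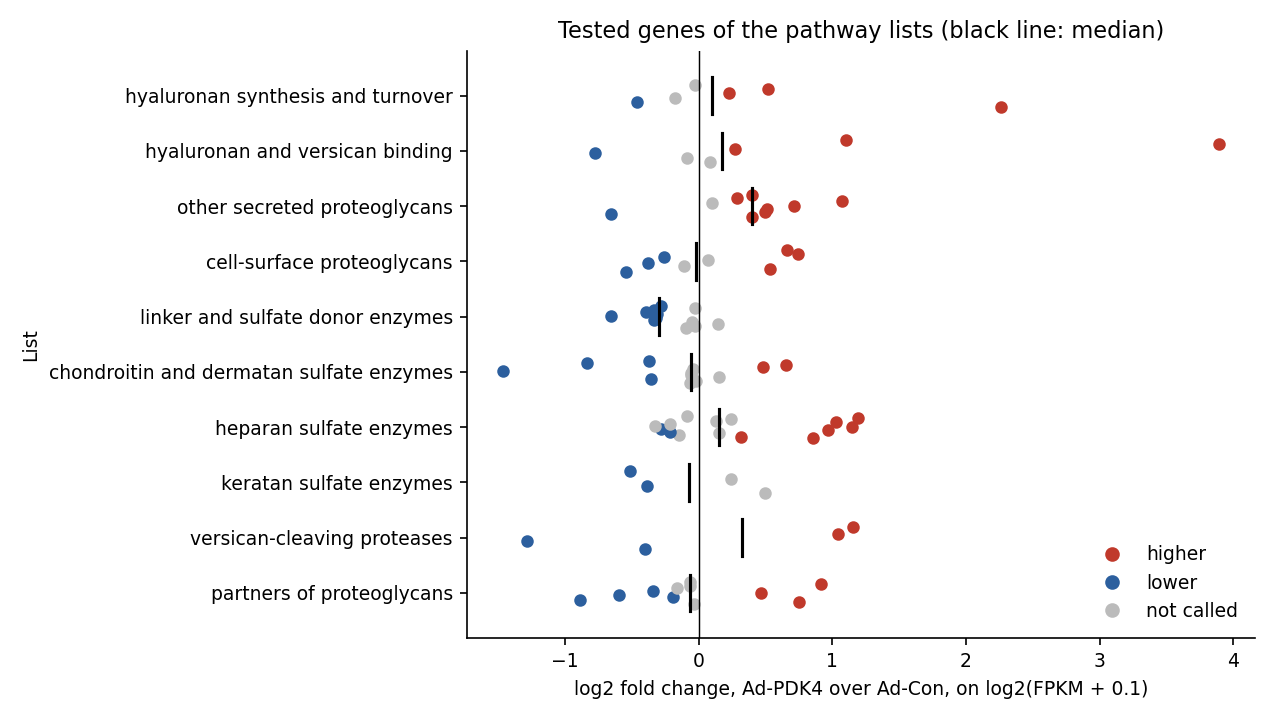
Log2 fold change of Ad-PDK4 over Ad-Con on log2(FPKM + 0.1) for the 87 tested genes of the 10 pathway lists, 1 row a list, where each point is a gene (red higher, blue lower, grey not called) and the black line is the median. The linker and sulfate donor enzymes hold 7 lower genes and 5 not called, and Ptx3 (3.89) and Cemip (2.26) lie farthest to the right. Over all tested genes 21.8% were higher and 20.8% lower.

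The genes whose pattern over the 6 libraries was closest to Agrn and to Vcan were sought among the 7731 genes that averaged at least 5 FPKM, by the root-mean-square distance between log2 values centred over the libraries. For Agrn these were Slit3 (distance 0.107), H2-K2 (0.128) and Adar (0.131), with log2 fold changes of 1.72, 1.79 and 1.86. For Vcan they were Sesn1 (0.0946), Klf10 (0.0954) and Plekho1 (0.106), with log2 fold changes of −1.38, −1.39 and −1.35. For genes that differ between the labels, this distance mostly reflects that difference, so genes of a like fold change come out nearest. Whether any of these genes share regulation was not tested.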

How the data were processed

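RNA-seq of 6 libraries (3 Ad-Con, 3 Ad-PDK4) was analysed from a table of FPKM that the authors deposited, with a column per library and no pooling. The submitters' processing notes, written by the authors, name CASAVA 1.8, fastp, HISAT2 2.0.5, featureCounts 1.5.0-p3, DESeq2 1.20.0 and the build GRCm39. Of the gene identifiers in the table, 54495 matched GENCODE mouse release M21 (GRCm38), and 98.3% of these had GRCm38 coordinates. The labels name a SMARTER kit and the study's methods a NEBNext kit for library preparation, and which was used is not settled by the values. FPKM times gene length gave whole reads for 100% of values (tolerance 0.01 reads), with totals of 17588942 to 21861872 reads per library. The lengths of the 9 genes equalled the joined exons of all annotated transcripts. These reads gave depth and counting intervals, which cover counting error only and not biological spread.

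The log2(FPKM + 0.1) values of the 13423 genes that averaged at least 0.5 FPKM were compared between the groups with limma 3.58.1 in R 4.3.3, with trend and robust moderation and no covariates. P-values were adjusted over all tested genes by the Benjamini-Hochberg method, and calls were made at an adjusted p below 0.05. The authors used DESeq2 for their own comparison. FPKM values are not counts, so limma on the log scale was the main test and limma-voom on the recovered reads an alternative. Every adjusted p is from limma.

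Groups came from the treatment labels and replicate numbers from the titles. Members, pathway lists and cell type markers were chosen with earlier results of these data known, and 2 of the listed symbols are other names of listed genes. The rule named all 9 genes and Pdk4, the 2 largest rises and 2 largest falls per list among called genes averaging at least 1 FPKM, and the 3 genes nearest in pattern to Agrn and to Vcan. The alternatives were other pseudocounts, filters and scalings, moderation without trend, a replicate block, limma-voom and leaving out each library. Tests of Has2 and Has1 without a level filter and with a library left out were added after the data had been seen. Promoter windows came from RefSeq (GRCm38.p6), which held 6 of the 9 genes.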

Additional observations from a re-analysis of the deposited data

How the results depend on the processing

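Vcan and Lum stayed called lower, Agrn and Dcn called higher, and Bgn not called under every alternative that could be run, with log2 fold changes of −1.48 to −1.11 for Vcan, −1.31 to −0.98 for Lum, 1.56 to 1.78 for Agrn, 0.74 to 0.91 for Dcn and 0.025 to 0.147 for Bgn. A minimum mean FPKM of 5 left 1 of the 9 genes called lower, since Vcan and Prelp were then not tested. Prelp also lost its call with no filter (−0.32, adjusted p = 0.0626) and with TPM scaling (−0.28, adjusted p = 0.0545), and Fmod passed in limma-voom on recovered reads (−0.50, adjusted p = 0.041). Has2, tested without a filter, gave 0.29 with a pseudocount of 1, 2.36 with 0.01 and 2.46 in limma-voom (adjusted p = 1.1e-03). The smooth muscle marker Smtn, not called, changed sign with quantile normalization (−0.034) and ranged from −0.024 (without replicate 2 of Ad-PDK4) to 0.044 when each library was left out. The cause of these shifts was not tested.

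Same-numbered libraries of the 2 groups did not deviate together (correlations across genes of −0.0460, −0.0311 and −0.00129). With 3 libraries a group, these values cannot show whether such libraries shared a culture or an animal. With the replicate block, 2759 genes were higher and 2626 lower, against 2928 and 2798 without it. In this fit Prelp did not pass (adjusted p = 0.050), Hspg2 passed (−0.24, adjusted p = 0.040), and Has2 (adjusted p = 0.0594) and Has1 (adjusted p = 0.0749), both without a filter, did not pass. Over all alternatives in which they were tested, Omd lost its call in 8 of 15 (also with the block, no filter, quantile normalization and moderation without trend), Glce in 8 of 16 (also with the block, no filter and TPM scaling) and Hyal1 in 5 of 15 (also with no filter). Depth limits Has2, Has1 and Has3, with at most 51 reads in any library.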
